A study of Mus musculus with 12 samples.

Results

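A group of 9 enzymes that break down histidine, tryptophan, tyrosine, glycine and phosphoethanolamine was followed from intact liver through hepatocyte isolation into culture: Hal, Amdhd1, Uroc1, Tdo2, Hpd, Hgd, Fah, Gldc and Etnppl. They were chosen by name, as 9 of the 32285 genes in the count matrices, and each was read as UMIs (unique molecular identifiers, each standing for 1 captured RNA molecule) in hepatocyte nuclei, with the endothelial nuclei of the same samples as background. The single-nucleus RNA libraries came from 8 wild-type mice labelled C57BL6J, described in the study's methods as male C57BL/6NTac of 10 to 12 weeks on chow. Each mouse gave a snap-frozen biopsy of the perfused liver (Liver), the cells released from the same liver by collagenase and spun at 50 g (Cell Suspension), and hepatocytes cultured for 24 h on collagen (Primary Hepatocytes). These were seeded in MEM-199 with a higher serum content and, once attached, moved overnight to MEM-199 with 0.5% serum, 1 µM dexamethasone and 1 nM insulin. The 24 samples were hashtagged and run in 6 pools of 4, of which only pools 2 and 5 held both Liver and Primary Hepatocytes. No group was treated, and dexamethasone and insulin were present in culture alone, so that culture time and medium cannot be told apart in the cultured samples.

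The liver clears the surplus of most dietary amino acids, and most of these enzymes catalyse steps of that clearance in the hepatocyte. Hal (histidine ammonia-lyase), Uroc1 (urocanate hydratase) and Amdhd1 (imidazolonepropionase) are the first enzymes of histidine breakdown, in that order. Tdo2 (tryptophan 2,3-dioxygenase) opens the kynurenine pathway of tryptophan, and Hpd (4-hydroxyphenylpyruvate dioxygenase), Hgd (homogentisate 1,2-dioxygenase) and Fah (fumarylacetoacetate hydrolase) act in this order in the breakdown of tyrosine. Gldc is the glycine decarboxylase of the mitochondrial glycine cleavage system, and Etnppl is ethanolamine-phosphate phospho-lyase, which ends the breakdown of phosphoethanolamine. Several amino acid enzymes are known to be more abundant around the portal vein (periportal) than around the central vein (pericentral) of the liver lobule.

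The deposited table held 53467 nuclei, of which 44788 were read as hepatocyte nuclei, with 15166 in Liver, 13339 in the isolated cells and 16283 in culture. Another 5435 were read as endothelial nuclei, at 29 to 560 in a sample. Hepatocyte nuclei summed to between 2104087 and 29023569 UMIs in a sample, and 337 cell barcodes occurred in more than 1 pool. Cultured clusters carry 1 common label in the deposited annotation and were divided by their markers. The summed hepatocyte markers in the large cultured clusters 0, 1, 14 and 17 stood at 2824 to 5442 CPM (counts scaled to a common UMI total). This range overlaps the 2475 to 2893 CPM of the non-cultured endothelial clusters. It also includes the 3199 CPM of cluster 12, the cultured cluster read as endothelial. Hepatocyte markers did not enter the choice of type. Clusters 0, 1, 14 and 17 were read as hepatocyte because no endothelial, stellate, Kupffer, leukocyte or biliary sum was high enough to name them otherwise. Even so, the endothelial sum reached 307 CPM (cluster 14) and the stellate sum 514 CPM (cluster 17), against 27.1 to 162 CPM and 14.1 to 75.4 CPM in the non-cultured hepatocyte clusters. Cluster 8, which the deposited annotation also labels as cultured, holds 166 Liver, 705 Cell Suspension and 1450 Primary Hepatocytes nuclei. It had a median of only 1608 UMIs per nucleus, and leaving it out changed no count of called members.

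The genes lie on 7 chromosomes of GRCm38 (GENCODE vM21). Hal (chr10:93488768-93519304, plus strand) and Amdhd1 (chr10:93523338-93540033, minus strand) point towards each other with 4033 bases between their ends. Etnppl (chr3:130617448-130637521, plus strand) and Tdo2 (chr3:81957090-81976202, minus strand) share a chromosome without being neighbours. Hpd lies at chr5:123171807-123182727 and Fah at chr7:84585159-84606722, both on the minus strand. Uroc1 (chr6:90333284-90364551) and Hgd (chr16:37580153-37632020) are on the plus strand, and Gldc (chr19:30098447-30175429) is on the minus strand.

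The 250 bases before the RefSeq start sites of 4 members are given below (GRCm38.p6), since these genes differed most in what follows. Hgd had the largest fall from Liver to Primary Hepatocytes, Hal had the widest zonal difference, Gldc alone was not called between Liver and Primary Hepatocytes, and Etnppl differed most between mice. The windows are chr10:93488518-93488767 on the plus strand for Hal, chr16:37579903-37580152 on the plus strand for Hgd, chr19:30175442-30175691 on the minus strand for Gldc and chr3:130617198-130617447 on the plus strand for the first Etnppl start. Capitals mark matches to TATAAA (the TATA box) or TTGCNNAA (C/EBP) on either strand.

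Hal: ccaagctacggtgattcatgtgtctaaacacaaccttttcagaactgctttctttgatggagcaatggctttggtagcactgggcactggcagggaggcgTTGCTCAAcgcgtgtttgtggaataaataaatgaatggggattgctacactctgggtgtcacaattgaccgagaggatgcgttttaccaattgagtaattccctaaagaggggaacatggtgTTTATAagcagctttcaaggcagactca

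Hgd: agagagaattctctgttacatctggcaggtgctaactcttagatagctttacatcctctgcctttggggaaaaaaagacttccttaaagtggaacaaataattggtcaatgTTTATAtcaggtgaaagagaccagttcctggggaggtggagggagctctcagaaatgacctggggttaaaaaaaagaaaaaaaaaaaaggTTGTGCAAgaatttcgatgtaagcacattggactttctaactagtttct

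Gldc: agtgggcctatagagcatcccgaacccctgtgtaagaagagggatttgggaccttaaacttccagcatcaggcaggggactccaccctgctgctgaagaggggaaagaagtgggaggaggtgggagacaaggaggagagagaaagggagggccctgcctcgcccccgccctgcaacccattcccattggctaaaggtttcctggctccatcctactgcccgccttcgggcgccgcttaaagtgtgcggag

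Etnppl: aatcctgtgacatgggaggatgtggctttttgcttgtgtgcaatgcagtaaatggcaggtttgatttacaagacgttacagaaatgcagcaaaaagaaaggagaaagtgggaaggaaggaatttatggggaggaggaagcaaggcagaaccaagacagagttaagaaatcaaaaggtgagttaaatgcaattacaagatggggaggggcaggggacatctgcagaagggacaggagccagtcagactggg

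Hal held TTTATA, the TATA box letters of the other strand, 28 to 23 bases before its start, and TTGCTCAA 150 to 143 bases before it. Hgd held the same TTTATA letters 139 to 134 bases before its start and TTGTGCAA at 49 to 42 bases, nearer to it. The TATA letters occurred in 12.4% and the C/EBP letters in 9.56% of all 32851 RefSeq promoter windows of this length. No match to either motif was present in the Gldc and Etnppl windows shown. Also searched on both strands were CAAAGTCCA (HNF4A, in 0.384% of windows), TGTTTAC (FOXA, 3.17%), TGACGTCA (cyclic AMP response element, 1.55%), HNF1 (0.00913%) and the glucocorticoid receptor motif (0.387%), and none of these 5 matched in a window of any of the 9 members. Such matches describe letters, not binding. CpG dinucleotides numbered 8 in the Gldc window, 6 in Hal and 1 each in Hgd and Etnppl, against a median of 6 over all windows.

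The first question was how the 9 enzymes moved between liver, isolation and culture. From Liver to Primary Hepatocytes 8 of the 9 fell, with log2 fold changes between -2.78 (Fah) and -5.58 (Hgd) (edgeR quasi-likelihood test, Benjamini-Hochberg adjusted p below 0.05), where 26.3% of all 26778 genes tested were called lower. From Cell Suspension to Primary Hepatocytes all 9 were called lower, against 23.5% of genes. Between Liver and Cell Suspension 1 member, Hpd, was called higher and none lower, against 8.15% and 14.2% of genes respectively. Unlike the other members, Hpd held no unspliced UMIs (from RNA that still has introns), so that its count is not like theirs. In spliced UMIs alone Fah was also called higher (0.66 on the log2 scale). The part of the splicing states in the Hpd call was not tested. The median log2 fold change of the 9 was -4.40 from Liver to Primary Hepatocytes, -4.74 from Cell Suspension to Primary Hepatocytes and 0.35 from Liver to Cell Suspension, beside medians of 0.10, 0.02 and 0.02 over all genes. The log2 fold changes are from TMM-scaled counts, and the levels below are TMM-scaled CPM of summed hepatocyte nuclei.

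**Figure D1:**
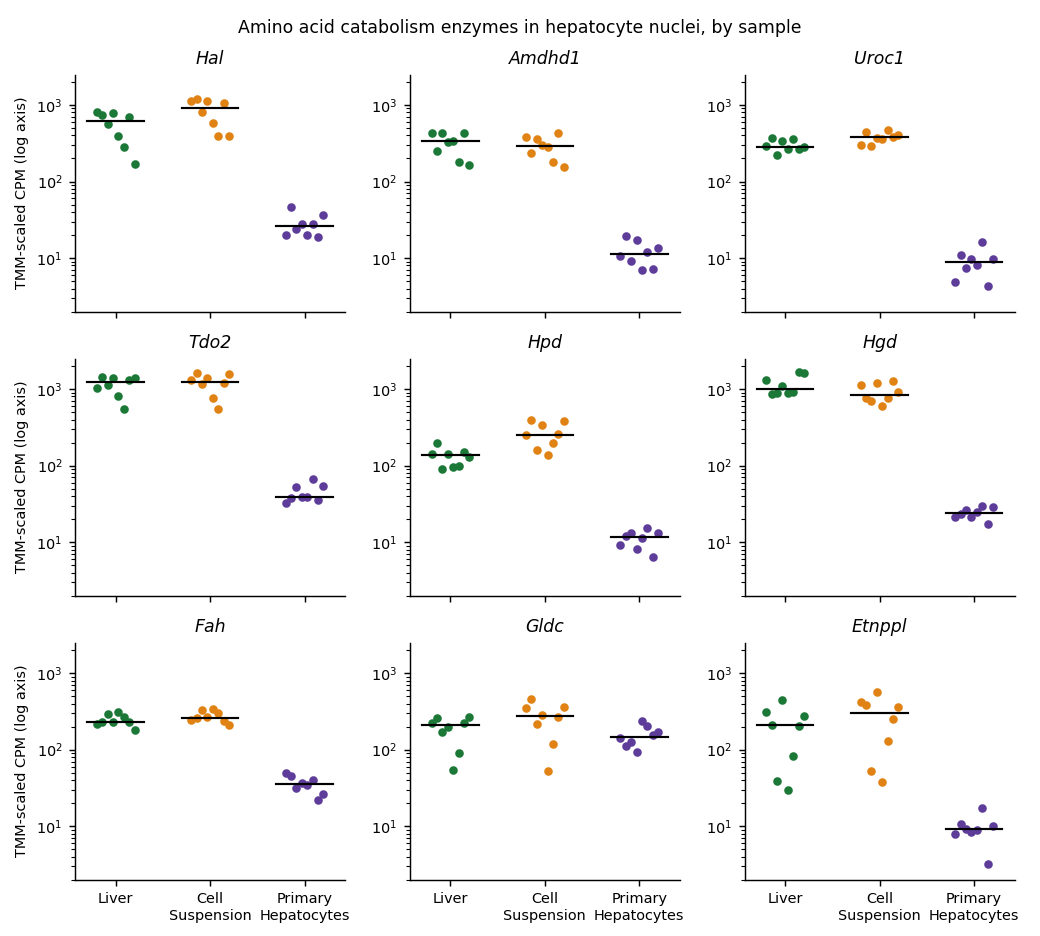
TMM-scaled CPM (log axis) of each member in hepatocyte nuclei, 1 point per mouse in the order of mouse number, with a line at the median of the 8 samples. In 8 of the 9 panels all Primary Hepatocytes points lie below all Liver points, and Gldc, whose Primary Hepatocytes samples lie between 93.7 and 240 CPM, is the exception.

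Among the histidine enzymes, Hal stood at 172 to 809 CPM in Liver (median 626), 389 to 1186 in Cell Suspension (median 926) and 18.6 to 46.5 in Primary Hepatocytes (median 26.1). The cultured samples lay below every Liver and Cell Suspension sample. Hal fell by 4.33 ± 0.32 (SE, n = 8 against 8) on the log2 scale from Liver to Primary Hepatocytes (edgeR adjusted p = 6.6e-13). Uroc1 ranged over 220 to 365 CPM in Liver (median 286), 294 to 466 in Cell Suspension (median 378) and 4.35 to 16.04 in Primary Hepatocytes (median 8.94), and fell by 5.07 ± 0.22 from Liver (edgeR adjusted p = 2.0e-18). Amdhd1 ranged over 165 to 435 CPM in Liver (median 335), 154 to 426 in Cell Suspension (median 292) and 7.08 to 19.3 in Primary Hepatocytes (median 11.3), and fell by 4.74 ± 0.27 (edgeR adjusted p = 2.1e-15). No cultured sample overlapped a Liver or Cell Suspension sample for any of these 3. For the whole set, 8 of 9 members lay lower without overlap between Liver and Primary Hepatocytes (16.2% of all genes did) and the same 8 between Cell Suspension and Primary Hepatocytes (12.2%).

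Tdo2, the entry of tryptophan into the kynurenine pathway, stood at 554 to 1424 CPM in Liver (median 1219), 557 to 1625 in Cell Suspension (median 1252) and 32.9 to 66.5 in Primary Hepatocytes (median 38.9). Liver and Cell Suspension overlapped over most of their ranges, and all cultured samples lay below both. Tdo2 fell by 4.66 ± 0.24 on the log2 scale from Liver to culture (edgeR adjusted p = 1.4e-16) and differed by 0.08 ± 0.21 between Liver and Cell Suspension (adjusted p = 0.83).

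The tyrosine enzymes differed in the sizes of their changes as counted, and no test between genes was run. In culture the mean CPM without TMM scaling was 32.0 for Hgd and 14.8 for Hpd. The endothelial means there were 31.7 and 25.2, so that the sizes of these 2 falls hold only as counted. Hgd stood at 872 to 1647 CPM in Liver (median 997), 603 to 1281 in Cell Suspension (median 834) and 17.1 to 30.1 in Primary Hepatocytes (median 23.8), and its log2 fold change of -5.58 ± 0.21 from Liver to culture was the largest of the 9 (edgeR adjusted p = 1.5e-19). From Cell Suspension to Primary Hepatocytes Uroc1 (-5.42) stood before Hgd (-5.25). Fah, the last enzyme of the pathway, stood at 181 to 309 CPM in Liver (median 231), 209 to 339 in Cell Suspension (median 261) and 21.8 to 49.8 in Primary Hepatocytes (median 35.6). Its log2 fold change of -2.78 ± 0.16 (edgeR adjusted p = 1.6e-15), or 6.86-fold, was the smallest among the 8 that were called. Hpd, which acts before both, stood at 90.7 to 197 CPM in Liver (median 137), 137 to 394 in Cell Suspension (median 254) and 6.44 to 15.4 in Primary Hepatocytes (median 11.8). Hpd was higher in Cell Suspension than in Liver in 8 of 8 mice, by 1.01 ± 0.21 on the log2 scale (edgeR adjusted p = 0.00045), and then fell by 4.58 ± 0.24 from Cell Suspension to Primary Hepatocytes (adjusted p = 3.1e-16). In pools 2 and 5 alone the Hpd rise was 1.29 ± 0.42 with an edgeR adjusted p of 0.095, and was not called. For this comparison these pools held only Liver of mice 4 and 5 and Cell Suspension of mice 4, 5 and 8. Pools 1 and 6, which also held both sample types, were left out there. The parts of pool and of the smaller number of samples in the lost call were not tested.

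Mouse by mouse, 4 more members stood higher in Cell Suspension than in Liver in 8 of 8 mice without being called, where 5.7% of all genes were higher in every mouse. That share has no floor on the level and includes genes of far fewer UMIs than the members. It was not computed for genes of the members' level. The log2 difference within a mouse was 0.48 to 1.18 for Hal, 0.30 to 0.86 for Etnppl, 0.04 to 0.54 for Uroc1 and 0.0087 to 0.22 for Fah. In the fit with mouse as a block their edgeR adjusted p was 0.056, 0.41, 0.069 and 0.44, so that Hpd (0.98, adjusted p = 0.00017) was again the 1 member called. Amdhd1 and Hgd were lower in 7 of 8 mice (adjusted p of 0.72 and 0.16 with the block).

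Gldc stood at 54.1 to 271 CPM in Liver (median 209), 52.5 to 458 in Cell Suspension (median 275) and 93.7 to 240 in Primary Hepatocytes (median 148). The 3 ranges overlapped, and Primary Hepatocytes were lower than Liver in 6 of 8 mice and higher in 2. From Liver to Primary Hepatocytes it differed by -0.27 ± 0.31 on the log2 scale (edgeR adjusted p = 0.51), and the sign turned to 0.05 with all nuclei and to 0.09 in pools 2 and 5 alone. From Cell Suspension to Primary Hepatocytes it fell by 0.77 ± 0.32 (edgeR adjusted p = 0.043). That edgeR call was lost with mouse as a block (-0.52, edgeR adjusted p = 0.18), in spliced UMIs alone, after thinning all samples to the shallowest, in all nuclei, in pools 2 and 5 alone and without mouse 1, 2, 3, 4, 7 or 8.

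Etnppl stood at 29.5 to 442 CPM in Liver (median 208), 37.3 to 567 in Cell Suspension (median 305) and 3.22 to 17.2 in Primary Hepatocytes (median 9.06). It had the widest spread in liver, with 14.95-fold between the lowest and the highest mouse, against 1.66-fold for Uroc1. Even the lowest Liver sample lay above the highest cultured one, and Etnppl fell by 4.40 ± 0.54 on the log2 scale (edgeR adjusted p = 3.3e-08).

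The neighbouring enzymes of the same pathways were read from a list of 65 genes of amino acid breakdown. From Liver to Primary Hepatocytes 59 of the 65 fell (90.8%, beside 26.3% of all genes) and 1 rose (beside 27.4% of all genes), with a median log2 fold change of -2.68 beside 0.10 for all genes. The tryptophan list had 8 of 8 lower, from Haao (3-hydroxyanthranilate dioxygenase, -6.23), Kmo (-5.21) and Kynu (-4.53) to Acmsd (-0.84), with Aadat at -3.68, Afmid at -3.56, Ido2 at -3.38 and Qprt at -2.22. Of the enzymes around tyrosine, Tat (tyrosine aminotransferase) had a log2 fold change of -4.31, Gstz1 of -3.36, Qdpr of -3.19 and Pcbd1 of -1.87, each called lower. Ftcd, which takes the last step of histidine breakdown, fell by 2.70. Among the enzymes named from these pathways, the smallest changes were at Acmsd and Pcbd1.

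The glycine cleavage system, of which Gldc is 1 of 4 proteins, was uneven. Gcsh (the lipoate carrier) fell by 1.87 and Amt (the aminomethyltransferase) by 0.47 (edgeR adjusted p = 0.0084), while Dld, a subunit shared with other dehydrogenase complexes, differed by -0.22 (adjusted p = 0.15) and was called lower with pool as a covariate (-0.57). The Amt call was lost with pool as a covariate, in unspliced UMIs alone, after thinning, in all nuclei, in pools 2 and 5 alone and without mouse 7. Of the paralogs of Etnppl, Agxt2 fell by 2.32, whereas Phykpl, a phospho-lyase of hydroxylysine breakdown, rose by 0.68 ± 0.10 from Liver to Primary Hepatocytes. Phykpl was the only one of the 65 called higher, and its rise of 0.46 in pools 2 and 5 alone was not called. Among the rest the largest falls were of Sds (serine dehydratase, -5.00), Bhmt (-4.92) and Mat1a (-4.90), and 5 genes were not called: Dld, Sdsl, Tdh, Dao and Gpt2.

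**Figure D2:**
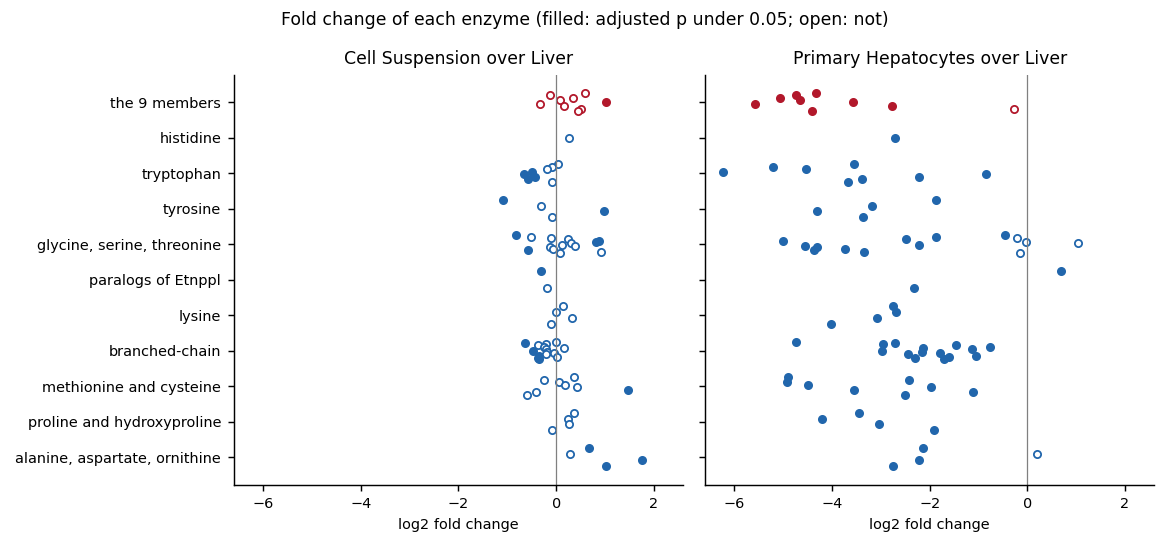
Log2 fold change of each member and of 64 of the other enzymes by pathway, Cell Suspension over Liver (left) and Primary Hepatocytes over Liver (right); filled points have an edgeR adjusted p under 0.05. Most points lie near 0 on the left and between -6.23 and -0.47 on the right, where Phykpl at 0.68 is the only filled point above 0.

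Between Liver and Cell Suspension 13 of the 65 fell (20%, beside 14.2% of all genes) and 7 rose (10.8%, beside 8.15%), with a median log2 fold change of -0.09 beside 0.02 for all genes. The 7 that rose were Got1 (1.76), Cth (1.47), Oat (1.02), Tat (0.97), Sds, Sdsl and Gpt. Tat, the enzyme directly before Hpd, rose with it, although its call was lost with pool as a covariate, in unspliced UMIs alone, in pools 2 and 5 alone and without mouse 2, 3, 6 or 8. Among those that fell were Pcbd1 (-1.09), Amt (-0.82), Acmsd (-0.66), Bckdha (-0.64), Pipox (-0.58), Ido2 (-0.57), Haao (-0.49), Hibch (-0.47), Qprt (-0.44) and Phykpl (-0.32). Of these 10, Pcbd1 alone was called in pools 2 and 5 alone. Phykpl, Haao and Qprt also lost the call under RLE size factors, in all nuclei and without single mice (mouse 5, 6, 7 or 8 for Phykpl, 7 for Haao, 4 or 8 for Qprt), and Haao turned to 0.35 in spliced UMIs alone. Phykpl was also not called with DESeq2, in either splicing state alone or after thinning, Haao and Qprt not with pool as a covariate, Qprt not in spliced UMIs alone or after thinning, Haao not with the stricter count filter, Acmsd and Ido2 not in unspliced UMIs alone, Hibch not in spliced UMIs alone, Acmsd and Amt not after thinning, and Ido2 not in all nuclei. Over all genes this comparison depended on scaling, with 3800 lower and 2183 higher under TMM and 3062 lower and 2800 higher under RLE size factors, which moved the median of all genes from 0.02 to 0.10. Under RLE 7 of the 65 were lower and 10 higher, Hpd was again the 1 member called, and no member changed its sign. With mouse as a block 15 of the 65 were lower and 9 higher, beside 4018 and 2273 of all 26778 genes. In pools 2 and 5 alone 3 of the 65 were called: Pcbd1, Got1 and Oat. These pools held only Liver of mice 4 and 5 and Cell Suspension of mice 4, 5 and 8. The parts of pool and of the smaller number of samples in the calls lost there were not tested.

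How far the cultured levels stood above background was read from endothelial nuclei, which should lack these enzymes. In Liver the hepatocyte CPM without TMM scaling exceeded the endothelial CPM of the same sample in 8 of 8 samples for each of the 9 members, by 3.96-fold (Gldc) to 7.70-fold (Hgd) between the means. In Cell Suspension it did so in 8 of 8 samples for 8 members and in 6 for Etnppl, where the hepatocyte level lay below the endothelial one in mouse 5 (29.5 against 45.6 CPM) and mouse 6 (114 against 134 CPM), on 18 and 22 endothelial UMIs. In Primary Hepatocytes it did so in 8 of 8 samples for Gldc alone (204 ± 51.9 against 59.9 ± 19.7 CPM, SD, n = 8), in 6 for Fah (48.0 ± 13.4 against 29.6 ± 14.7) and in 2 to 5 for the other 7. For these 7 the endothelial mean was 87.8% (Uroc1) to 170% (Hpd) of the hepatocyte mean. Endothelial sums in culture were small, with 38 UMIs of Uroc1 and 282 of Tdo2 over the 8 samples, against 1330 and 6678 in hepatocyte nuclei. Counted per nucleus instead of as CPM, cultured hepatocyte nuclei held more than endothelial nuclei in 8 of 8 samples for every member but Etnppl (7 of 8), for example 0.0829 ± 0.0349 UMIs of Uroc1 against 0.0187 ± 0.0174. For Fah the endothelial mean was 61.7% of the hepatocyte mean. How much of the remaining level of these 7 members and of Fah is background was not tested. The sizes of their falls into culture, and the order of those sizes, therefore hold only for the summed UMIs as counted.

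Single nuclei were also thinned to 1000 UMIs each, which kept 96.1% of the hepatocyte nuclei in Liver, 93.0% in the isolated cells and 98.2% in culture. Of the endothelial nuclei it kept 93.5%, 68.7% and 73.4%. In Liver 58.7% ± 8.8 of hepatocyte nuclei held a UMI of Hgd (SD, n = 8), 55.3% ± 11.2 of Tdo2, 30.3% ± 9.7 of Hal and 12.3% ± 7.1 of Etnppl. In Primary Hepatocytes the shares were 3.28% ± 0.70 for Hgd against 3.60% ± 2.49 in endothelial nuclei, 5.54% ± 1.36 against 8.99% ± 8.18 for Tdo2 and 3.71% ± 1.08 against 4.38% ± 1.83 for Hal. Gldc was in 14.9% ± 2.8 of cultured hepatocyte nuclei, close to its 14.4% ± 5.5 in Liver and above the 3.83% ± 1.57 of endothelial nuclei. Fah was in 4.37% ± 1.27 against 2.43% ± 2.38, and the other 7 members were at or below the endothelial mean. Before thinning, the median UMIs of a nucleus lay between 4339 and 8449 for cultured hepatocyte and between 996 and 3210 for cultured endothelial samples.

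**Figure D3:**
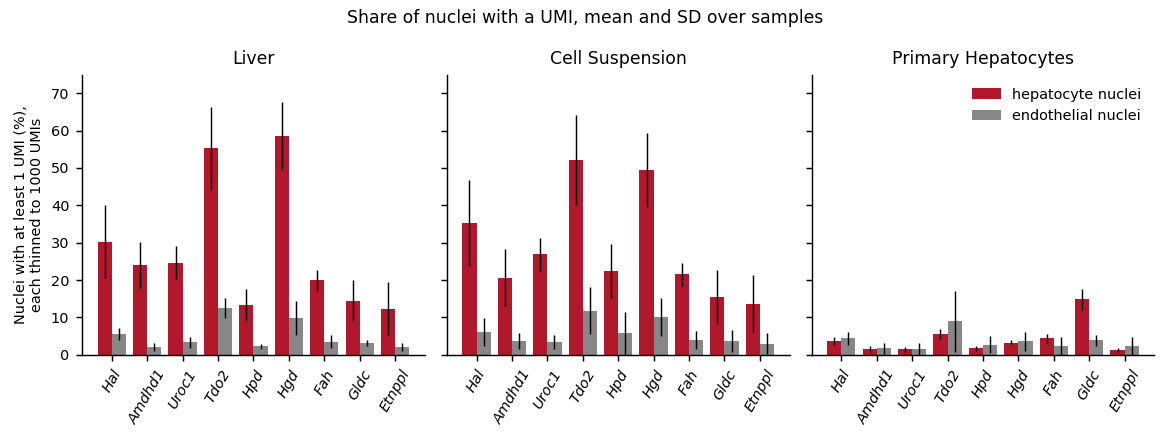
Share of hepatocyte and endothelial nuclei with at least 1 UMI of each member after thinning to 1000 UMIs, mean (bar) and SD (line) over the samples of each type. Hepatocyte bars stand well above endothelial bars in Liver and Cell Suspension, and in Primary Hepatocytes only Gldc (14.9% against 3.83%) and Fah (4.37% against 2.43%) are higher in hepatocyte nuclei.

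Spliced and unspliced UMIs were compared next, since nuclei hold both pre-mRNA with introns and finished mRNA. The spliced share of spliced plus unspliced UMIs differed by gene, in Liver from 4.32% ± 1.07 for Hgd to 43.2% ± 5.3 for Uroc1 (SD, n = 8). Hpd had no unspliced UMI in any of the 24 samples and was left out, as 1 of 460 such genes among 12703 with at least 1000 spliced or unspliced UMIs. From Liver to Cell Suspension the share rose for 4 of the 8 testable members without overlap between samples: Uroc1 to 60.2% ± 5.4, Amdhd1 from 18.8% ± 3.2 to 31.3% ± 5.4, Fah from 14.04% ± 2.46 to 26.6% ± 5.3 and Hgd to 7.84% ± 1.14 (two-sided exact permutation tests, p = 0.000155, the smallest that 8 against 8 allows; adjusted p = 0.00047 over 24 tests). Of all 7346 genes with enough UMIs, 21.4% rose without overlap in this comparison and 36.5% from Liver to Primary Hepatocytes. From Liver to Primary Hepatocytes the same 4 and also Tdo2 (26.7% to 36.0%, exact permutation adjusted p = 0.0056) and Hal (22.3% to 28.3%, adjusted p = 0.030) had higher shares. These calls are by adjusted p, while the 36.5% counts genes without overlap between samples. The rules differ, so that this share cannot be set beside the number of members called. The Hal call was lost without mouse 1, 2, 3, 4 or 7 (4.35 to 5.79 percentage points) and in the test paired by mouse (exact paired permutation adjusted p = 0.067, higher in 7 of 8 mice). Paired by mouse, the other 5 were each higher in 8 of 8 mice (exact paired permutation adjusted p = 0.017), and so were the 4 members from Liver to Cell Suspension, with no further member called there. From Cell Suspension to Primary Hepatocytes 2 members were called, with overlapping samples: Hgd at 7.84% ± 1.14 against 10.6% ± 1.5 (exact permutation adjusted p = 0.0021) and Hal at 24.1% ± 3.4 against 28.3% ± 2.3 (adjusted p = 0.029). This Hal call was lost without mouse 1, 2, 3 or 4, and both calls held paired by mouse (exact paired permutation adjusted p = 0.017). For Cell Suspension to Primary Hepatocytes no share over all genes was computed, so that these calls cannot be set against the rest of the genes. Gldc stood at 7.002% ± 2.82, 7.64% ± 1.39 and 8.09% ± 1.46 in the 3 types (exact permutation adjusted p = 0.52 from Liver to culture). Without mouse 5, whose Liver share stood far above the others, Gldc rose from 6.05% ± 0.89 in Liver to 8.39% ± 1.29 in Primary Hepatocytes with no overlap (n = 7 against 7, exact permutation adjusted p = 0.0016). Etnppl differed by 8.57 percentage points with all mice (24.6% ± 10.9 against 33.1% ± 6.5, exact permutation adjusted p = 0.13), by 11.8 without mouse 5 (adjusted p = 0.017) and by 0.49 with ambiguous UMIs counted as spliced (adjusted p = 0.86).

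The spliced share of all UMIs in hepatocyte nuclei moved in the same direction, from 19.5% ± 1.7 in Liver to 27.2% ± 3.0 in Cell Suspension and 29.1% ± 1.6 in Primary Hepatocytes (exact permutation p = 0.000155 for both against Liver). Its part in the members' shares was not tested. Counting spliced UMIs alone, Fah was called higher in Cell Suspension than in Liver (0.66 on the log2 scale) beside Hpd. The calls from Liver to Primary Hepatocytes were alike in both states: 8 of 9 members were called lower than Liver in spliced UMIs alone, and 7 of the 8 with unspliced UMIs in unspliced UMIs alone. Sizes differed, with log2 fold changes of -1.999 in spliced and -3.01 in unspliced UMIs for Fah, and of -4.67 and -5.77 for Uroc1.

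Zonation of the members was measured by ranking the hepatocyte nuclei of each sample by a zone score, built from 10 periportal and 10 pericentral landmark genes that are not members, and by comparing the highest and lowest of 3 equal parts. In Liver 5 members were higher on the periportal side in 8 of 8 mice: Hal (1.06 ± 0.51 against 0.0774 ± 0.0310 UMIs in a nucleus of 1000 UMIs, 13.7-fold), Etnppl (13.1-fold), Gldc (6.71-fold), Uroc1 (4.32-fold) and Amdhd1 (3.38-fold). Hpd went the other way in 8 of 8 mice, at 0.117 ± 0.053 on the periportal and 0.189 ± 0.066 on the pericentral side. Each of these 6 had p = 0.0078 in the two-sided exact paired permutation test, the smallest that 8 pairs allow, and an adjusted p of 0.016 over 27 tests. Of the 1410 genes at or above the level of the lowest member, the landmarks left out, 16.7% were higher on the periportal and 15.5% on the pericentral side in every mouse. Tdo2 (1.12-fold), Hgd (0.94-fold) and Fah (0.96-fold) did not differ beyond the spread between mice (exact paired permutation adjusted p of 0.13, 0.33 and 0.35).

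The zonal order was kept in Cell Suspension, where the same 5 members were higher on the periportal side and Hpd on the pericentral side in 8 of 8 mice, and Fah was also higher on the pericentral side in 8 of 8 (0.269 ± 0.035 against 0.218 ± 0.037; exact paired permutation adjusted p = 0.016). Over 1293 genes these shares were 17.9% and 13.5% there. Tdo2 was not called in the isolated cells (1.16-fold, exact paired permutation adjusted p = 0.062), but was called periportal at 2000 UMIs per nucleus (a difference of 0.177 UMIs, higher in 8 of 8 mice, exact paired permutation adjusted p = 0.013) and without mouse 3 (adjusted p = 0.030). In Primary Hepatocytes, Hal was at 0.0477 ± 0.0138 on the periportal and 0.0423 ± 0.0153 on the pericentral side (exact paired permutation adjusted p = 0.24), and Gldc alone was called, at 0.231 ± 0.073 against 0.188 ± 0.053 (1.23-fold, higher in 7 of 8 mice, adjusted p = 0.030). The Gldc call was lost when 4 equal parts were used and without mouse 1, 2, 3, 4, 5, 6 or 8. Calls in culture depended on the thinning level. At 2000 UMIs per nucleus Gldc (1.42-fold) and Etnppl (1.59-fold) were higher on the periportal side in 8 of 8 mice (exact paired permutation adjusted p = 0.013), Hal (1.64-fold) in 7 (adjusted p = 0.025) and Uroc1 (1.71-fold) in 6 (adjusted p = 0.047). With 4 equal parts Fah (1.36-fold) and Etnppl (1.83-fold) were called, in 7 of 8 mice each (exact paired permutation adjusted p = 0.028). Of all genes at or above the level of the lowest member in culture, 5.71% had an unadjusted exact paired permutation p under 0.05 on the periportal side in the main setting, 8.89% at 2000 UMIs and 6.28% with 4 parts. The zone score itself spanned less in culture, with means of the outer parts from -0.36 to 1.54, against -2.68 to 2.25 in Liver. The pericentral landmarks summed to 91.5 to 169 CPM in cultured clusters 0, 1, 14 and 17, below the 262 to 357 CPM of the endothelial clusters. The parts in culture are therefore ranks of the score and were not shown to be the zones of Liver. In the part scored most pericentral Gldc stood at 0.188 UMIs in culture and 0.0460 in Liver, and in the part scored most periportal at 0.231 and 0.309.

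**Figure D4:**
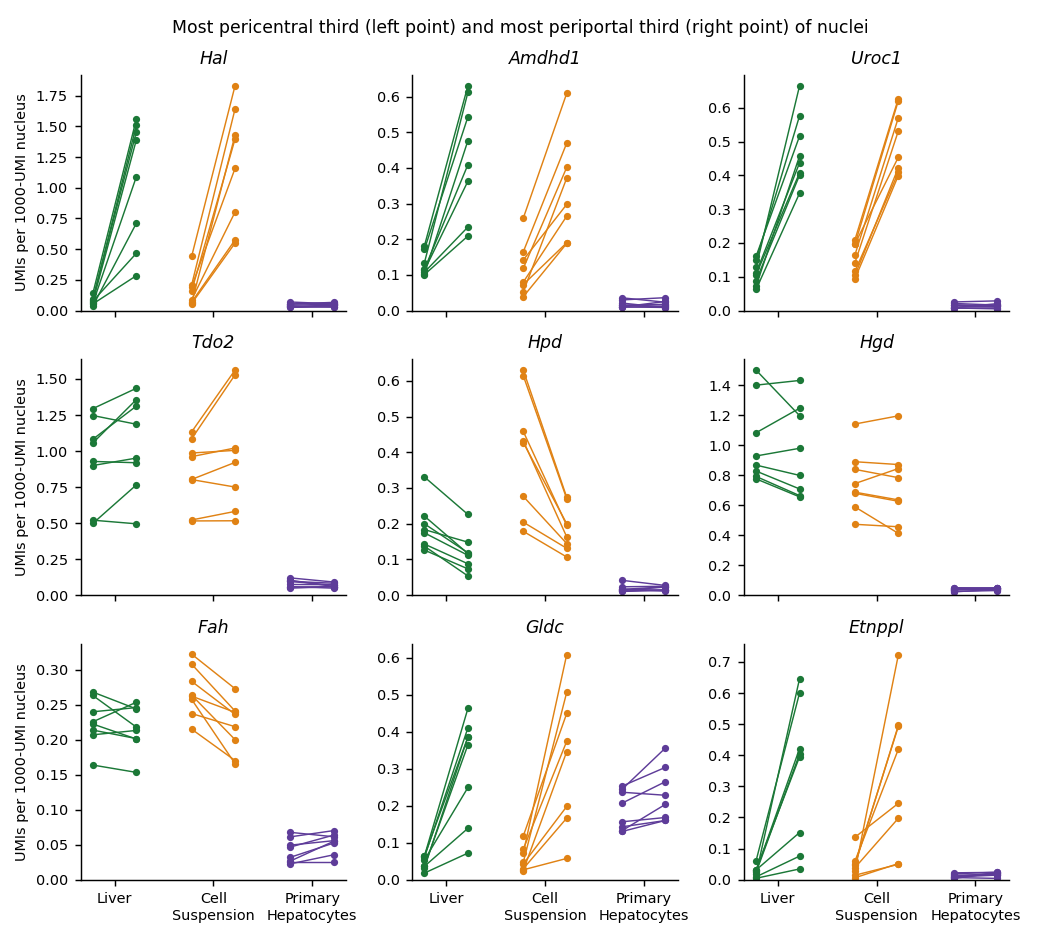
UMIs of each member in nuclei of 1000 UMIs, for the most pericentral (left point) and most periportal (right point) of 3 equal parts of each sample's hepatocyte nuclei, with 1 line per mouse. Hal, Amdhd1, Uroc1, Gldc and Etnppl rise from left to right in every Liver and Cell Suspension sample, and Hpd falls in every one. In Primary Hepatocytes the lines are close to flat on this scale except for Gldc, which rises by up to 0.112 (mouse 5).

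The authors' clusters showed the same range, as a description. Liver nuclei of cluster 5 held 1529 CPM of Hal, 661 of Etnppl and 396 of Gldc, while those of cluster 18, which carries the highest pericentral landmark sum, held 16.5, 9.49 and 11.1, although Tdo2 was at 1234 and 1134 in the 2 clusters. Only 3 of the 8 Liver samples gave at least 20 nuclei to cluster 5, against 7 for cluster 18, so that this contrast also holds differences between mice. Among cultured clusters Gldc stood apart in cluster 17, at 725 CPM over its 1271 Primary Hepatocytes nuclei (398 to 1356 over the 8 samples), against 126 to 218 CPM in clusters 0, 1, 8 and 14. Uroc1 (53.0 CPM against 6.09 to 15.6), Tdo2 (152 against 34.6 to 75.5), Etnppl (35.2 against 6.83 to 17.8) and Hgd (42.4 against 19.8 to 35.4) were also highest in the cultured nuclei of cluster 17. Hal and Hpd (25.7 CPM each) lay within the range of the other cultured clusters there. Amdhd1 (8.83 against 9.85 to 20.6) and Fah (28.7 against 29.1 to 60.3) were lowest. The summed stellate markers of cluster 17, over all its nuclei, were the highest of these 5 clusters (514 CPM, others 111 to 351), and their part in these levels was not tested.

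Differences between mice were large, and for several members the order of the mice was similar before and after isolation. Etnppl in Liver was lowest in mice 5, 3 and 6 (29.5, 39.4 and 83.7 CPM) and between 205 and 442 in the other 5, and in Cell Suspension the same 3 mice were again lowest (37.3, 52.6 and 130). Mice 3, 5 and 6 were also the lowest 3 for Gldc and for Hpd and the highest 3 for Fah, in Liver and in Cell Suspension alike. Their Liver samples were in pools 1, 5 and 6 and their Cell Suspension samples in pools 4, 2 and 6. The zone score of the most periportal nuclei was also lowest in the Liver samples of these mice (1.73, 1.79 and 1.86, against 2.07 to 2.25), while in Cell Suspension this held for mice 5 and 6 (1.81 and 1.77) but not for mouse 3 (2.10, above mouse 8 at 2.08). The Liver samples of mice 3 and 5 were also the deepest, with medians of 13996 and 13130 UMIs per hepatocyte nucleus against 4391 to 9923 in the other 6 (5305 in mouse 6), and that of mouse 3 had the lowest spliced share of all UMIs (16.2%). In Cell Suspension the medians of mice 3, 5 and 6 were 5774, 2999 and 2688, within or just above the 1818 to 5457 of the others. The part of pool, zone score, depth and spliced share in these levels was not tested, nor was that of endothelial levels as high as those of Etnppl in Cell Suspension of mice 5 and 6.

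**Figure D5:**
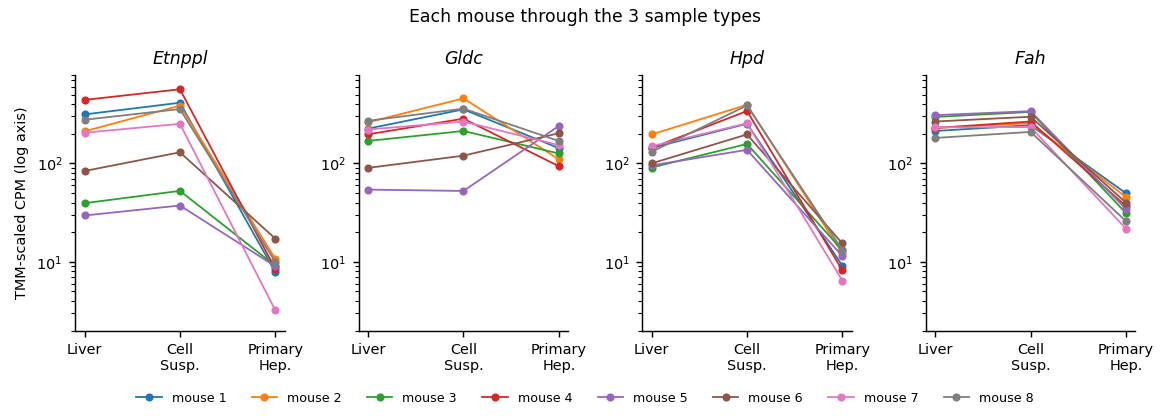
TMM-scaled CPM (log axis) of Etnppl, Gldc, Hpd and Fah in hepatocyte nuclei, with 1 line per mouse through Liver, Cell Suspension and Primary Hepatocytes. Mice 3, 5 and 6 are the lowest lines for Etnppl, Gldc and Hpd and the highest for Fah in Liver and Cell Suspension, and the order is different in Primary Hepatocytes.

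Over the 8 mice, Liver and Cell Suspension levels (log2 of TMM-scaled CPM plus 1) correlated with Pearson's r = 0.99 for Etnppl (Spearman's rho = 0.98), and 7 of the 9 members had a permutation p for r that passed adjustment over 27 relations, with r from 0.85 (Hpd) to 0.99. Such values were common: of 3953 genes of at least 50 CPM in Liver, 22.6% had an r as high as that of Hpd, and the median r was 0.63. By Spearman's rho 5 of the 9 passed, without Fah (rho = 0.83, exact permutation adjusted p = 0.069) and Hpd (rho = 0.76, adjusted p = 0.12), whose r became 0.68 without mice 3 and 5. For Etnppl the exact permutation p was 0.00012 for r (adjusted 0.0016) and 0.00040 for rho (adjusted 0.010), and r was 0.97 without mice 3 and 5, the 2 farthest from the median. Tdo2 (r = 0.96, rho = 0.93, exact permutation p = 0.0013 and 0.0022) leaned on its outer mice, with r = 0.67 without mice 5 and 6. Uroc1 (r = 0.73) and Hgd (r = 0.76) did not pass (exact permutation adjusted p of 0.11 each). None of the 18 relations of Liver or Cell Suspension with Primary Hepatocytes passed, with exact permutation adjusted p of 0.097 or more. Gldc had the most negative of these, r = -0.75 between Cell Suspension and Primary Hepatocytes (rho = -0.57, exact permutation p = 0.029 and 0.15), which became 0.0037 without mice 5 and 6.

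As deviations from the mean of their sample type over the 16 Liver and Cell Suspension samples, in which each mouse counts 2 times, Etnppl ran with Hpd (r = 0.85) and against Fah (r = -0.85), Gldc with Tdo2 (r = 0.83), and the neighbours Hal and Amdhd1 with each other (r = 0.77). Uroc1, the remaining histidine enzyme, ran against Amdhd1 (r = -0.62). The genes most like the mean of the 9 over all 24 samples, among 3944 genes of at least 50 CPM in Liver, were Cyp2d9, Stard10, Abcg5, Faah and Npc1 (r = 0.99 for each), where the fall in culture sets most of the likeness. Over the 16 deviations they were Papss2 (r = 0.96), F11 (0.96), Npc1 (0.94), Trim14 (0.92) and Cyp2d9 (0.92).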

How the data were processed

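Nuclei from 24 hashtagged samples were measured by 10x Genomics 3′ single-nucleus RNA sequencing in 6 pools. Per the labels and the study's methods, the authors quantified reads with Salmon Alevin and alevin-fry against spliced and unspliced GRCm38 transcripts, assigned hashtags with mclust, removed doublets with scDblFinder and annotated Seurat clusters. The deposited matrices hold raw UMI counts per gene in spliced, unspliced and ambiguous rows, not normalized. The deposited table gives each nucleus its sample, sample type, cluster and cell type; 1 sample name spelled CD2 there, in the Cell Suspension group, was read as mouse 2 of that group, which no other name stands for. No doublet caller was run here, and hashtag matrices and 0 columns of other samples were set aside.

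The 3 rows of a gene were added. Clusters that the authors call cultured were read by their endothelial, stellate, Kupffer, leukocyte and biliary marker sums, each divided by its median over clusters. A cluster took the type with the highest ratio where this reached 20 and was otherwise hepatocyte, a limit set after seeing the values. Counts were summed over hepatocyte nuclei of each sample. Genes with at least 10 counts in all were tested with edgeR 4.0.16 (TMM, quasi-likelihood, 1 coefficient per sample type, 8 samples each, R 4.3.3), with Benjamini-Hochberg adjustment over all genes and a threshold of 0.05. DESeq2 1.42.0 was an alternative. The scripts were tested on simulated counts made from these samples, where they recovered nearly all known changes. Sums held 2104087 to 29023569 UMIs, so that even the lowest member sum in culture was 57 UMIs (Etnppl). Spliced shares needed at least 20 UMIs per sample. Exact permutation tests were two-sided.

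Samples of 1 mouse share a number. Deviations from the type mean of the same mouse correlated at 0.427 to 0.903 between Liver and Cell Suspension (3838 genes), so that the numbers pair those samples, but at a median of only 0.0554 and 0.0238 with Primary Hepatocytes. p-values measure the spread between 8 mice of 1 study. All 9 members were named, and other enzymes by pathway list, with the 3 largest falls and 3 largest rises outside the members' own pathways among called genes of at least 10 CPM. The members, lists and tests were chosen with earlier results of these data known. Zone landmarks came from a fixed list. Of the symbols, Mmut was matched through its RefSeq synonym. The alternatives were other normalizations, filters, splicing states, depths, nuclei sets, pools and leaving out each mouse; leaving out the low-UMI cluster, pools 2 and 5 alone, UMIs per nucleus, mouse correlations, the shares of all genes given beside spliced shares, zone sides, mouse correlations and directions within mice, spliced share tests paired by mouse and tests of zone differences between sample types were added after seeing the data. The values of 1 enzyme of the list are not reported here, though counts over the 65 include it.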

Additional observations from a re-analysis of the deposited data

Results flagged for a closer look

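In 78 groups of 8 samples tested for a sample far from the rest (levels, spliced shares and zone differences of the members), 4 held one, against about 3.9 that chance gives. All 4 were spliced shares. In Liver mouse 5 had the highest share for Gldc (13.68%, others 4.71% to 7.14%) and for Etnppl (47.72%, others 15.1% to 30.3%), and mouse 3 the lowest for Fah (8.566%, others 13.1% to 15.95%). In Primary Hepatocytes mouse 3 had the highest share for Hal (33.33%, others 26.4% to 28.8%).

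The periportal minus pericentral difference of a member, in UMIs per nucleus of 1000 UMIs, was itself compared between sample types within each mouse (two-sided exact paired permutation tests over 8 mice, adjusted over 27 tests, added after seeing the data). This difference is in absolute UMIs and becomes smaller as the level falls. Between Liver and culture the levels fell 20.1-fold for Hal, 26.6-fold for Amdhd1, 33.6-fold for Uroc1, 11.8-fold for Hpd and 21.2-fold for Etnppl, so that the values below do not measure zonation apart from the level. From Liver to Primary Hepatocytes it changed by -0.9744 for Hal, -0.3058 for Amdhd1, -0.3651 for Uroc1, -0.3091 for Etnppl and 0.07291 for Hpd, in 8 of 8 mice each (exact paired permutation adjusted p = 0.018), and by -0.2202 for Gldc in 7 of 8 (adjusted p = 0.040). From Cell Suspension to Primary Hepatocytes it changed by -1.008 for Hal, -0.2327 for Amdhd1, -0.3508 for Uroc1, -0.2811 for Etnppl, 0.2176 for Hpd and 0.06173 for Fah, in 8 of 8 mice each (exact paired permutation adjusted p = 0.018), by -0.2404 for Gldc (adjusted p = 0.030) and by -0.1489 for Tdo2 (adjusted p = 0.040), in 7 of 8 each. Between Liver and Cell Suspension the pericentral excess became larger for Hpd (-0.1447, 7 of 8 mice, exact paired permutation adjusted p = 0.030), whose level also rose. For Fah, which had no called difference between the sides in Liver, the difference moved to the pericentral side (-0.04165, 8 of 8, exact paired permutation adjusted p = 0.018).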

How the results depend on the processing

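Of 154 recounts of called genes or tests under other settings, 150 stayed within 1.5 times the main count. The exceptions lie between Liver and Cell Suspension, where the 1 called member became 2 with spliced UMIs alone (Fah added), 0 with unspliced UMIs alone (Hpd has none) and 0 in pools 2 and 5 alone, and the 20 other enzymes became 3 in pools 2 and 5 alone, which have fewer samples. In the fit with mouse as a replicate block, the paired analysis, 8 of 9 members were called from Liver to Primary Hepatocytes, 8 from Cell Suspension to Primary Hepatocytes (Gldc lost, -0.52) and 1 from Liver to Cell Suspension; the block changed no other call of a member. Paired by mouse, 11 spliced share tests were called in place of 12, without Hal from Liver to Primary Hepatocytes. The 8 falls from Liver kept their direction and call in every setting that gave a value, with the weakest Fah at -1.999 and the strongest Uroc1 at -5.77. Over all genes, Liver against Cell Suspension gave 3294 lower and 3205 higher with DESeq2, 1823 and 1440 after thinning to the shallowest sample and 1137 and 502 in pools 2 and 5 alone, and Cell Suspension against Primary Hepatocytes gave 4442 and 4391 in those pools.

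Signs turned for small, uncalled values. From Liver to Cell Suspension these were Amdhd1 (0.21) and Hgd (0.17) with spliced UMIs alone, Tdo2 with spliced UMIs alone (-0.20) and with pool as covariate (-0.10) and Uroc1 with unspliced UMIs alone (-0.0039), and the called Haao turned to 0.35 with spliced UMIs alone. From Liver to Primary Hepatocytes they were Gldc with all nuclei (0.050) and in pools 2 and 5 alone (0.094) and Dld with spliced UMIs alone (0.017). The Etnppl spliced share from Liver to Cell Suspension turned to -1.45 percentage points with ambiguous UMIs counted as spliced. With nuclei thinned to the deeper of the UMI levels tried, the zone differences of Tdo2 (0.0023) and Hpd (-0.0013) in Primary Hepatocytes and of Hgd in Cell Suspension (0.0092) turned. Leaving out 1 mouse at a time, the spliced share from Cell Suspension to Primary Hepatocytes ranged over -2.79 to 0.13 points for Amdhd1 and -0.033 to 1.05 for Gldc, and the zone difference in Primary Hepatocytes over -0.0019 to 0.0022 for Amdhd1, -0.00061 to 0.0018 for Uroc1 and -0.00080 to 0.0026 for Hpd. The cause was not tested for any of these. The Hal spliced share calls against Primary Hepatocytes were lost without mouse 1, 2, 3 or 4, and that from Liver also without mouse 7. With hepatocyte nuclei set against endothelial nuclei in 27 pairs of a member and a sample type, hepatocyte nuclei were higher in every sample in 18 by CPM and in 26 by UMIs per nucleus. Depth limits this background: in cultured endothelial nuclei the sum of a member was 0 UMIs in some samples.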
